A study of Mus musculus with 27 samples.

Results

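The ventral tegmental area (VTA) was compared with the nucleus accumbens (NAc) at postnatal day 7 (P7) in mouse cells sorted for the dopamine transporter (DAT). The comparison was chosen by region and age and used 6 of the 27 libraries of the series, 3 from VTA P7 and 3 from NAc P7. The other libraries are VTA and NAc at P30 and P60 and the substantia nigra pars compacta (SNc) at the 3 ages, 3 per group, and the labels call the sorted cells dopaminergic neurons in all of them. All came from mice given as C57/BL6 with no further allele or treatment in the labels. Tissue of each region was dissociated, DAT+ cells were isolated by flow cytometry, and RNA was amplified by SMART-seq2, a full-length method for small inputs, and sequenced as 150 bp paired-end reads. The design used 5 mice per age. With 9 libraries per age, some libraries share mice. The labels do not tie libraries to mice, so p-values cover the spread between samples alone, and that spread may be technical. The later ages are P30 and P60. The titles of both regions' libraries share 1 date and run code at P7, and each later age has its own.

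The VTA is a midbrain nucleus whose dopaminergic neurons send axons to the NAc, a striatal nucleus made mostly of inhibitory projection neurons. A dopaminergic neuron makes dopamine with tyrosine hydroxylase (Th) and Dopa decarboxylase (Ddc), loads it into vesicles with the monoamine transporter Slc18a2, and takes it up again with the transporter DAT, the product of Slc6a3. The cell bodies lie in the midbrain, and the NAc holds their axon endings among striatal neurons and glia. In the first postnatal weeks, microglia, the resident macrophages of the brain, divide and spread through the tissue, and astrocytes and oligodendrocyte precursors increase in number.

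Levels are FPKM, a length-normalized share of the fragments of a library, rescaled so that the reads counted in genes are the whole, so they compare genes per length. The VTA libraries held 10090855 to 11147696 reads in genes and the NAc libraries 12748196 to 16455078. At least 1 read was found for 13954 to 16278 genes in the VTA libraries and for 19725 to 19904 in the NAc libraries. Mitochondrially encoded genes took 13.2% to 21.7% of the reads in the VTA libraries and 6.03% to 7.9998% in the NAc libraries. VTA P7 replicate 3 had the fewest genes and the highest mitochondrial share. The VTA libraries resembled each other less than the NAc libraries did, with rank correlations across genes of 0.624 to 0.678 against 0.914 to 0.920. Their differences in depth, mitochondrial share and spread run with the region, and their part in the results was not tested.

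Of 18888 genes tested, 1091 were called (5.78%), meaning an adjusted p under 0.05 from limma with Benjamini-Hochberg adjustment. Of these, 638 were higher in VTA (3.38%) and 453 lower (2.40%). The fit used all 27 libraries, which share 1 estimate of the spread. Fold changes are VTA over NAc on the scale of log2(value + 1), given with the SE, and their median over all genes tested was -0.05. This scale understates the change of genes with low values, and 261 of the genes called lower had a VTA mean under 1. Without VTA P7 replicate 1, 2 or 3 the count was 865, 1130 and 880, and without NAc P7 replicate 1, 2 or 3 it was 390, 475 and 428. With the 9 P7 libraries alone, 3120 genes were called, of which 1365 were higher in VTA. With a pseudocount of 0.1 in place of 1, 361 were called, 120 higher and 241 lower. In the main fit, 3929 of the 18888 genes had an unadjusted p under 0.05. A limma test on read counts, voom, called 2894. List counts at an unadjusted p under 0.05 or by voom are to be read against these totals, and do not by themselves show a difference. Groups without overlap were found in 14.1% of the genes with every VTA library above every NAc library, and in 21.3% with every VTA library below. The genes with the largest changes and the list members named by rule were picked among those without overlap, so in them the separation of the groups comes from the choice and is given as a description. As the libraries are bulk samples, fewer cells of a type and less RNA per cell cannot be told apart in any of the results that follow.

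**Figure D1:**
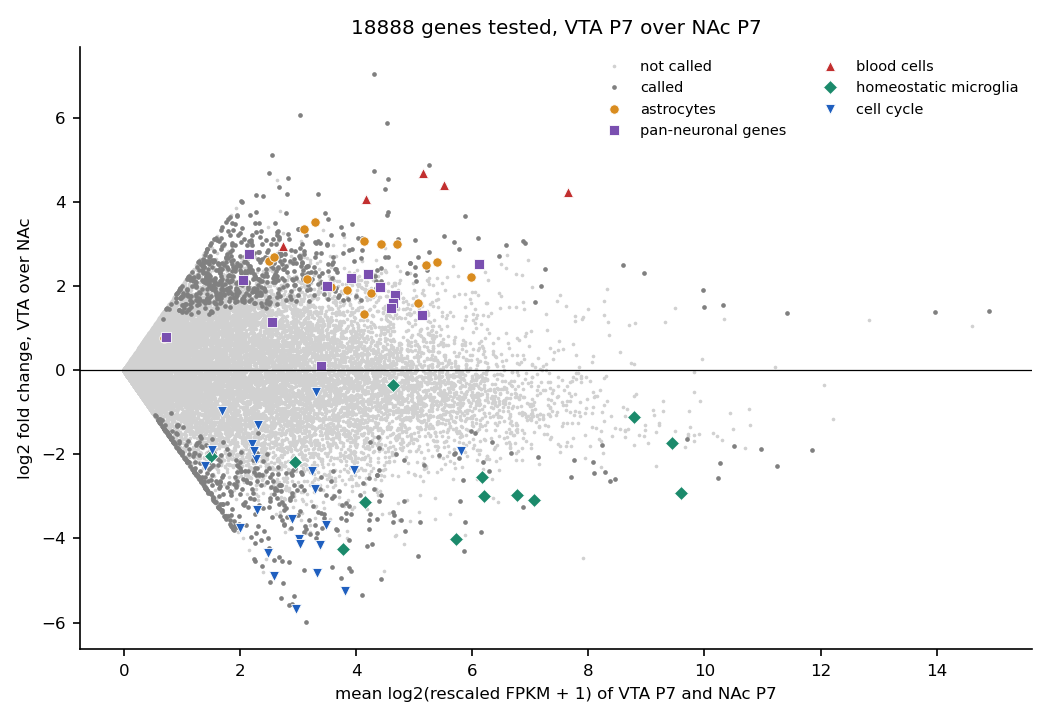
Log2 fold change of VTA P7 over NAc P7 (y axis) against the mean of log2(rescaled FPKM + 1) in these groups (x axis) for the 18888 genes tested, with the 1091 called genes in darker grey and the members of 5 lists coloured. Astrocyte, pan-neuronal and blood cell genes lie above 0, and the cell cycle and homeostatic microglia genes lie below it.

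Slc6a3, Th and Pitx3, which define dopaminergic neurons, were at or near 0 in most libraries of both regions, against the label of the cells. The exception was Th at 2.16 in NAc P7 replicate 3. Slc18a2 and Ddc also had reads in both regions, with Ddc at low levels. Slc6a3, on whose product the sort was based (chromosome 13, 73536747 to 73578672, GRCm38), was at 0.0263, 0 and 0 in the VTA libraries, against 0.319, 0 and 0 in the NAc libraries. Th (chromosome 7, 142892752 to 142931128) was at 0, 0.19 and 0.293 in the VTA libraries, against 0, 0 and 2.16 in the NAc libraries. Both genes had no read in at least 1 library of each region. For Slc6a3, 3 reads would give 0.0528 to 0.0860 in these libraries. Neither gene was called (limma adjusted p = 0.986 for Slc6a3 and 0.909 for Th). Pitx3, which specifies these neurons in the midbrain, had 0 reads in the 6 libraries, as did En1, En2, Foxa1 and Foxa2. The mean of Pitx3 was 0 in each of the other groups as well, the SNc groups among them. Slc18a2 was at 1.84, 28.6 and 5.76 in the VTA libraries, against 2.92, 5.21 and 3.65 in the NAc libraries, with overlap between the groups (log2 fold change 0.78 ± 1.04, adjusted p = 0.744). Ddc was at 1.22, 3.68 and 0 in the VTA libraries, against 0.648, 0.954 and 1.39 in the NAc libraries, and overlapped as well (log2 fold change 0.14 ± 0.63, adjusted p = 0.956). The 17 genes of dopamine synthesis, transport and reception summed to 111 to 145 in the VTA libraries, against 115 to 124 in the NAc libraries. The 16 genes made by all myeloid cells summed to 4907 to 5081 in the VTA libraries, against 18140.5 to 19249 in the NAc libraries.

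Nr4a2 (Nurr1), a nuclear receptor needed for midbrain dopaminergic neurons and also made by other neurons, was higher in VTA and the single call of the midbrain dopaminergic transcription factors, of which 3 of 10 were tested and 5 had no read. It was at 17.2, 15.7 and 9.57 in the VTA libraries, against 0.441, 2.74 and 2.74 in the NAc libraries, and the groups did not overlap (log2 fold change 2.44 ± 0.61, adjusted p = 0.0185). Slc17a6, the vesicular glutamate transporter VGLUT2 of midbrain and other subcortical glutamatergic neurons (chromosome 7, 51622006 to 51671119), was at 67.5, 38.5 and 28.7 in the VTA libraries, against 1.02, 1.04 and 2.27 in the NAc libraries. Every VTA library was thus more than 10-fold above every NAc library (log2 fold change 4.18 ± 0.66, adjusted p = 0.000549). Cck, the neuropeptide cholecystokinin, which many VTA neurons make, was at 92.7, 33.3 and 22.5 in the VTA libraries, against 2.06, 3.63 and 5.23 in the NAc libraries (log2 fold change 3.25 ± 0.86, adjusted p = 0.0249). These 2 genes were the calls among 10 tested genes enriched in VTA dopaminergic neurons, and Slc17a6 was also the single call of 5 genes of glutamatergic neurons. The median log2 fold change was 0.64 over the 10, of which 3 had every VTA library above every NAc library and 3 every one below. It was -0.63 over the 5, with 1 above and 1 below. Maoa, an enzyme that breaks down monoamines, was the single called member of the 15 tested genes of dopamine synthesis, transport and reception, at 13.2, 12.6 and 33.7 in the VTA libraries, against 1.75, 2.54 and 2.43 in the NAc libraries (log2 fold change 2.55 ± 0.62, adjusted p = 0.0153). Slc17a6 was still called without any 1 of the 6 libraries. Nr4a2, Cck and Maoa missed the threshold in 2 to 4 of the 6 fits that leave out 1 library, all of them fits without VTA P7 replicate 1 or 3 or 1 of the 3 NAc P7 libraries, with adjusted p-values of up to 0.131.

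Genes that mark the midbrain as a region were not called by limma, and few could be tested. Of 21 patterning factors of the midbrain and hindbrain, 7 passed the filter on low values and 7 had no read in the 6 libraries. None was called by limma, 3 had an unadjusted p under 0.05, and voom, a limma test on read counts, called 3, of which 2 were higher and 1 lower. The median log2 fold change of the 7 was 1.01. Every VTA library was above every NAc library in 2 of them and below in 1. The 21 genes summed to 42.7 to 134 in the VTA libraries, against 22.5 to 25.8 in the NAc libraries. Otx2, which patterns the midbrain and marks part of the VTA, was at 4.52, 1.38 and 0 in the VTA libraries, against 0.0163, 0.274 and 0.0743 in the NAc libraries (log2 fold change 1.08 ± 0.57, adjusted p = 0.284). Six3, of the forebrain list, was higher in VTA at 0.317, 6.13 and 10.1, against 0.0506, 0.156 and 0.418 in the NAc libraries (log2 fold change 1.97 ± 0.57, adjusted p = 0.0409), 1 of 12 forebrain factors tested. Six3 missed the threshold in 5 of the 6 fits that leave out 1 library, all of them fits without VTA P7 replicate 2 or 3 or 1 of the 3 NAc P7 libraries, with adjusted p-values of up to 0.192.

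Genes of striatal projection neurons were lower in VTA for 4 of 19 members tested and higher for 1, with a median log2 fold change of -0.44. Ppp1r1b (DARPP-32), the dopamine-regulated phosphatase inhibitor of these neurons (chromosome 11, 98348404 to 98357796), was at 0.186, 0 and 0.135 in the VTA libraries, against 74.5, 67.1 and 64.97 in the NAc libraries (log2 fold change -5.98 ± 0.87, adjusted p = 0.000299). The groups lay far apart, with each NAc library above 60 and each VTA library below 1. Penk, the enkephalin precursor of the indirect pathway, was at 1.33, 16.7 and 2.79 in the VTA libraries, against 85.7, 76.4 and 38.4 in the NAc libraries (log2 fold change -3.57 ± 0.69, adjusted p = 0.0032). Pdyn, the dynorphin precursor of the direct pathway, was at 0.0315, 0.497 and 0 in the VTA libraries, against 12.2, 8.25 and 11.3 in the NAc libraries (log2 fold change -3.31 ± 0.87, adjusted p = 0.0247). Adora2a, the adenosine receptor of indirect pathway neurons, was at 0, 0 and 0.0324 in the VTA libraries, against 6.34, 4.35 and 3.92 in the NAc libraries (log2 fold change -2.52 ± 0.59, adjusted p = 0.0117). Penk and Pdyn were also the lower calls among 14 neuropeptide genes, and Cck the higher one. Drd1, the dopamine receptor of the direct pathway, overlapped between regions, at 1.43, 5.56 and 0 in the VTA libraries, against 2.94, 3.28 and 2.85 in the NAc libraries (log2 fold change -0.68 ± 0.58, adjusted p = 0.562). Rasd2, a small GTPase first described in striatum, was higher in VTA at 3.4, 11.4 and 4.68, against 0.152, 1.03 and 0.889 in the NAc libraries (log2 fold change 2.04 ± 0.61, adjusted p = 0.0463). Ppp1r1b and Penk were each still called without any 1 of the 6 libraries. Adora2a missed the threshold without NAc P7 replicate 1 (adjusted p = 0.0673). Pdyn and Rasd2 missed the threshold in 5 of the 6 fits that leave out 1 library, with adjusted p-values of up to 0.194.

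Genes shared by most neurons were higher in VTA for 3 of 14 members tested, with a median log2 fold change of 1.88, and the 3 VTA libraries lay above the 3 NAc libraries in 12 of the 14. Map2, a microtubule protein of dendrites, was at 14.6, 23.4 and 29.1 in the VTA libraries, against 4.36, 4.74 and 4.84 in the NAc libraries (log2 fold change 2.00 ± 0.51, adjusted p = 0.0208). The neurofilament gene Nefm was at 11.5, 19.97 and 5.07 in the VTA libraries, against 0.405, 1.23 and 0.597 in the NAc libraries (log2 fold change 2.77 ± 0.64, adjusted p = 0.0117). Nefl, the light neurofilament, was at 44.3, 43.8 and 15.6 in the VTA libraries, against 9.56, 5.66 and 4.04 in the NAc libraries (log2 fold change 2.19 ± 0.62, adjusted p = 0.0379). Map2, Nefm and Nefl missed the threshold in 2 to 5 of the 6 fits that leave out 1 library, with adjusted p-values of up to 0.165. With the P7 libraries alone 11 of the 14 were called higher, and without a NAc library 0 or 1.

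Synaptic genes followed the same direction, with 3 of 18 genes of vesicles and release and 4 of 20 receptor genes called higher in VTA and none lower, with median log2 fold changes of 1.47 and 1.10. Rims1, a scaffold of the active zone, was at 12.01, 7.01 and 21.8 in the VTA libraries, against 0.561, 1.06 and 1.17 in the NAc libraries (log2 fold change 2.80 ± 0.55, adjusted p = 0.00343). Syn2, a synapsin that tethers vesicles, was at 4.65, 10.1 and 18.01 in the VTA libraries, against 1.12, 0.89 and 1.08 in the NAc libraries (log2 fold change 2.39 ± 0.64, adjusted p = 0.0279). Among receptors, Glra2, the glycine receptor subunit of young neurons, had the smallest adjusted p, at 22.7, 12.7 and 17.7 in the VTA libraries, against 1.88, 2.91 and 1.72 in the NAc libraries (log2 fold change 2.54 ± 0.43, adjusted p = 0.000909). Gria4, an AMPA receptor subunit, was at 14.5, 20.3 and 16.4 in the VTA libraries, against 1.14, 1.93 and 1.89 in the NAc libraries (log2 fold change 2.77 ± 0.60, adjusted p = 0.00722). The AMPA subunit Gria2 and the kainate subunit Grik2 were also called (adjusted p = 0.034 and 0.0369). Rims1, Glra2 and Gria4 were each still called without any 1 of the 6 libraries. Syn2, Gria2 and Grik2 missed the threshold in 4 to 5 of the 6 fits that leave out 1 library, with adjusted p-values of up to 0.168. With the P7 libraries alone 11 of the 18 vesicle genes were called higher, and with a pseudocount of 0.1 none was.

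Of 10 genes of GABAergic neurons, 2 were called higher in VTA, with a median log2 fold change of 1.67. Abat, which breaks down GABA, was at 12.7, 8.24 and 20.5 in the VTA libraries, against 1.46, 1.87 and 1.91 in the NAc libraries (log2 fold change 2.35 ± 0.61, adjusted p = 0.0234). Pvalb, a calcium buffer of fast-spiking neurons, was at 9.6, 2.67 and 8.28 in the VTA libraries, against 0, 0.292 and 0 in the NAc libraries (log2 fold change 2.71 ± 0.75, adjusted p = 0.0334). Genes of immature neurons and axon growth were higher for 4 of 19 members and lower for 1, with a median log2 fold change of 1.64. Nnat, a membrane protein of young neurons, was at 1177, 737 and 886 in the VTA libraries, against 156, 149.6 and 181 in the NAc libraries (log2 fold change 2.49 ± 0.53, adjusted p = 0.00636). Dcx, the doublecortin of migrating neurons, was at 11.5, 7.58 and 10.8 in the VTA libraries, against 2.48, 2.24 and 3.2 in the NAc libraries (log2 fold change 1.58 ± 0.41, adjusted p = 0.0229). The other two called higher were Basp1, a growth cone protein, and Sox4, a transcription factor of new neurons (adjusted p = 0.0322 and 0.0247). Igfbpl1 went the other way, at 0.531, 0 and 0 in the VTA libraries, against 4.53, 3.53 and 5.09 in the NAc libraries (log2 fold change -2.21 ± 0.40, adjusted p = 0.00169). Nnat and Igfbpl1 were each still called without any 1 of the 6 libraries. Abat, Pvalb, Dcx, Basp1 and Sox4 missed the threshold in 5 to 6 of the 6 fits that leave out 1 library, with adjusted p-values of up to 0.115. Of the 19 genes of immature neurons, 12 were called higher with the P7 libraries alone and 1 without any 1 NAc library.

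**Figure D2:**
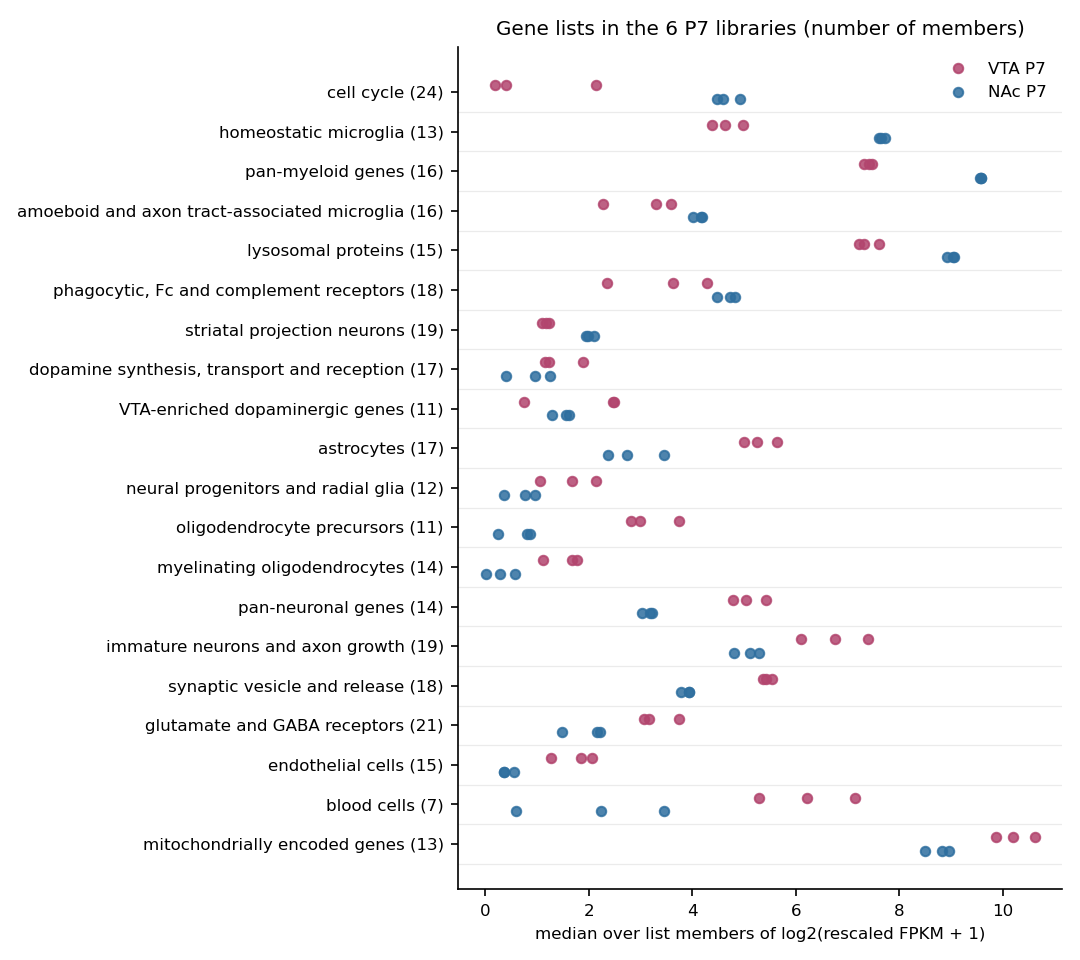
Median over the members of each of 20 gene lists of log2(rescaled FPKM + 1) (x axis) in the 3 VTA P7 libraries and the 3 NAc P7 libraries, 1 point per library, with the VTA row above the NAc row and the number of members in brackets. The points of the regions lie furthest apart for the cell cycle and the homeostatic microglia lists, lower in VTA, and for the blood cell list, higher in VTA.

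Astrocyte genes were higher in VTA for 9 of 17 members tested and lower for none, with a median log2 fold change of 2.49, and the VTA libraries lay above the NAc libraries in 15 of the 17. The summed level of the list was 679 to 1123 in the VTA libraries, against 103 to 201 in the NAc libraries. Fgfr3, a growth factor receptor of the astrocyte lineage, was at 55.6, 31.1 and 19.2 in the VTA libraries, against 2.38, 3.08 and 0.723 in the NAc libraries (log2 fold change 3.53 ± 0.65, adjusted p = 0.00202). Sox9, a transcription factor that specifies glia, was at 116, 68.5 and 48.1 in the VTA libraries, against 9.18, 9.89 and 5.94 in the NAc libraries (log2 fold change 3.01 ± 0.64, adjusted p = 0.00625). Each VTA library was above each NAc library in both genes. Gfap, the intermediate filament of astrocytes, was at 167, 16.5 and 76.6 in the VTA libraries, against 4.05, 14.6 and 4.67 in the NAc libraries (log2 fold change 3.00 ± 0.89, adjusted p = 0.0465). VTA P7 replicate 2 was the low library of its group for Gfap. Aldoc, a glycolytic enzyme enriched in astrocytes, was not called although its groups did not overlap, at 177, 99.1 and 140.4 in the VTA libraries, against 27.8, 36.3 and 22.3 in the NAc libraries (log2 fold change 2.22 ± 1.26, adjusted p = 0.331). Other called members were the ion and water balance genes Slc4a4, Atp1b2 and Mlc1 and the calcium-binding S100b, with log2 fold changes of 2.59, 2.49, 2.56 and 3.36 (adjusted p = 0.00181, 0.0049, 0.00593 and 0.0242). Fgfr3, Sox9, Slc4a4 and Atp1b2 were each still called without any 1 of the 6 libraries. Mlc1 missed the threshold without NAc P7 replicate 3 (adjusted p = 0.0524). Gfap and S100b missed the threshold in 4 to 5 of the 6 fits that leave out 1 library, all of them fits without VTA P7 replicate 1 or 3 or 1 of the 3 NAc P7 libraries, with adjusted p-values of up to 0.184. Of the 17, 4 were called with the FPKM as deposited, 4 to 7 without 1 NAc library, 14 with the P7 libraries alone and 16 with voom.

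Genes of neural progenitors and radial glia were higher for 4 of 12 members tested and lower for none, with a median log2 fold change of 0.69. Hes5, a Notch target that keeps progenitors undifferentiated, was at 95.5, 136 and 78.2 in the VTA libraries, against 4.34, 6.73 and 2.19 in the NAc libraries (log2 fold change 4.32 ± 1.02, adjusted p = 0.0135). Ptprz1, a receptor phosphatase of radial glia and oligodendrocyte precursors, was at 80.5, 51.5 and 95.2 in the VTA libraries, against 9.26, 17.5 and 9.58 in the NAc libraries (log2 fold change 2.56 ± 0.46, adjusted p = 0.0016). Fabp7, the brain lipid-binding protein, was at 431, 304 and 332 in the VTA libraries, against 48.1, 89.8 and 64.1 in the NAc libraries (log2 fold change 2.41 ± 0.67, adjusted p = 0.032). Sox2, the progenitor transcription factor, was the fourth (adjusted p = 0.0311). These genes are also made by astrocytes. Ptprz1 was still called without any 1 of the 6 libraries. Hes5, Fabp7 and Sox2 missed the threshold in 2 to 6 of the 6 fits that leave out 1 library, with adjusted p-values of up to 0.141. Of the 12, 1 was called with the FPKM as deposited and 1 to 2 without 1 NAc library.

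The oligodendrocyte lineage gave 2 of 11 precursor genes and 2 of 14 myelin genes called higher in VTA, and none lower, with median log2 fold changes of 1.52 and 0.74. Pdgfra, the growth factor receptor that marks precursors, was at 8.63, 10.5 and 16.4 in the VTA libraries, against 0.55, 1.2 and 1.34 in the NAc libraries (log2 fold change 2.64 ± 0.66, adjusted p = 0.0192). Sox10, the transcription factor of the whole lineage, was at 19.4, 6.5 and 28.97 in the VTA libraries, against 0.181, 1.83 and 3.32 in the NAc libraries (log2 fold change 2.77 ± 0.78, adjusted p = 0.0369). The levels were a few units at most in NAc. Mbp, myelin basic protein, was at 17.2, 4.56 and 18.7 in the VTA libraries, against 2.83, 1.25 and 1.9 in the NAc libraries (log2 fold change 2.11 ± 0.52, adjusted p = 0.0177). In these 3 genes every VTA library was above every NAc library. Pdgfra, Sox10 and Mbp missed the threshold in 4 to 5 of the 6 fits that leave out 1 library, all of them fits without VTA P7 replicate 1 or 3 or 1 of the 3 NAc P7 libraries, with adjusted p-values of up to 0.194.

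Microglial genes were abundant in both regions and lower in VTA. Of 13 homeostatic microglia genes, which mark resting microglia, 6 were lower and none higher, with a median log2 fold change of -2.91, and the VTA libraries lay below the NAc libraries in 12 of 13. The summed level of the list was 1149 to 1186 in the VTA libraries, against 5293 to 5648 in the NAc libraries. Tmem119, a membrane protein found in the brain in microglia (chromosome 5, 113793729 to 113800516), was at 8.36, 16.9 and 12.8 in the VTA libraries, against 199, 224 and 213 in the NAc libraries (log2 fold change -4.01 ± 0.62, adjusted p = 0.000482). Selplg, the P-selectin ligand, was at 2.19, 5.14 and 9.97 in the VTA libraries, against 51.1, 48.7 and 56.5 in the NAc libraries (log2 fold change -3.14 ± 0.53, adjusted p = 0.000912). Cx3cr1, the receptor for the neuronal chemokine fractalkine (chromosome 9, 119901616 to 120069879), was at 34.02, 37.9 and 42.7 in the VTA libraries, against 299, 293 and 316 in the NAc libraries (log2 fold change -2.96 ± 0.62, adjusted p = 0.00568). P2ry12, the ADP receptor of microglial processes, was at 36.8, 58.7 and 42.04 in the VTA libraries, against 419, 343 and 406 in the NAc libraries (log2 fold change -3.08 ± 0.90, adjusted p = 0.0423). Gpr34, a lysophospholipid receptor, was at 21.2, 0.0858 and 0.284 in the VTA libraries, against 66.9, 53.8 and 56.3 in the NAc libraries, so that VTA P7 replicate 1 was the high library of its group (log2 fold change -4.25 ± 1.02, adjusted p = 0.014). Tmem119, Selplg and Cx3cr1 were each still called without any 1 of the 6 libraries. P2ry12 and Gpr34 missed the threshold in 4 to 6 of the 6 fits that leave out 1 library, with adjusted p-values of up to 0.131. The list had 11 lower calls with the P7 libraries alone.

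Genes made by all myeloid cells were lower in VTA for 6 of 16 members tested and higher for none, with a median log2 fold change of -1.84, and the VTA libraries lay below the NAc libraries in 15. Ctss, the lysosomal protease cathepsin S (chromosome 3, 95526786 to 95556403), was at 461, 464 and 572 in the VTA libraries, against 2944, 3044 and 2782 in the NAc libraries (log2 fold change -2.55 ± 0.45, adjusted p = 0.00139). The NAc libraries were thus several-fold above the VTA libraries, with little spread in either group. C1qb, a chain of complement C1q, was at 836, 1175 and 1191 in the VTA libraries, against 3929, 3945 and 3697 in the NAc libraries (log2 fold change -1.87 ± 0.40, adjusted p = 0.00586). C1qc, another chain, was at 759, 877 and 715 in the VTA libraries, against 2839.5, 2751 and 2625 in the NAc libraries (log2 fold change -1.81 ± 0.43, adjusted p = 0.013). Both chains were several-fold lower in VTA. C1qa, the third chain, had separate groups but was not called, at 987, 892 and 753 in the VTA libraries, against 3224, 3228 and 2969 in the NAc libraries (log2 fold change -1.85 ± 0.71, adjusted p = 0.126). Csf1r, the receptor on which microglial survival depends, was at 164, 148 and 97.5 in the VTA libraries, against 722, 698 and 738 in the NAc libraries (log2 fold change -2.42 ± 0.56, adjusted p = 0.0112). The leukocyte phosphatase Ptprc (CD45) and Ly86, a partner of an innate immune receptor, were the remaining calls (adjusted p = 0.0402 and 0.0497). Ctss and C1qb were each still called without any 1 of the 6 libraries. Csf1r missed the threshold without NAc P7 replicate 1 (adjusted p = 0.0508). C1qc, Ptprc and Ly86 missed the threshold in 2 to 5 of the 6 fits that leave out 1 library, with adjusted p-values of up to 0.196. With the P7 libraries alone 15 of the 16 were called lower, and with the FPKM as deposited 1 was.

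The promoter of Ctss is shown because it had the smallest adjusted p of the myeloid list. It covers 250 bases before the gene's start and 50 after it, from RefSeq on GRCm38.p6 (chr3:95526536-95526835, plus strand), and capitals mark the letters GAGGAAGT or their reverse complement ACTTCCTC, a form of the purine-rich core bound by the myeloid factor PU.1.
Ctss: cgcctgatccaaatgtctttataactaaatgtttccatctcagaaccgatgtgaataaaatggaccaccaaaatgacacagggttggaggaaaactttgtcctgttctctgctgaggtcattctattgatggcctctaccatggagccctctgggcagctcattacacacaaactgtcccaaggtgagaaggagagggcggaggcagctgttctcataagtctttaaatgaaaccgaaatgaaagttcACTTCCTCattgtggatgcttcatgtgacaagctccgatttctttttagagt
These letters were in 2 of the 12 myeloid list promoters with a window (16.7%), against 3.28% of 27025 promoters. In the homeostatic list they were in 0 of 9.

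Lysosomal genes were lower in VTA for 3 of 15 members tested and higher for none, with a median log2 fold change of -1.57. Lgmn, the protease legumain, was at 1095, 1198 and 1012 in the VTA libraries, against 5495, 5374 and 5220.2 in the NAc libraries (log2 fold change -2.29 ± 0.48, adjusted p = 0.00568). Ctsz, cathepsin Z, was at 499, 491 and 776 in the VTA libraries, against 2738, 2615 and 2569 in the NAc libraries (log2 fold change -2.20 ± 0.41, adjusted p = 0.00219). Ctsb, cathepsin B, was at 439, 469 and 513 in the VTA libraries, against 1514, 1495 and 1380.3 in the NAc libraries (log2 fold change -1.63 ± 0.40, adjusted p = 0.0153). Lgmn and Ctsz were each still called without any 1 of the 6 libraries. Ctsb missed the threshold in 3 of the 6 fits that leave out 1 library, all of them fits without 1 of the 3 NAc P7 libraries, with adjusted p-values of up to 0.071. With the P7 libraries alone 13 of the 15 were called lower.

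Genes of the amoeboid and axon tract-associated microglia of the early postnatal brain were lower for 3 of 16 members tested, with a median log2 fold change of -1.14. The summed level of the list overlapped, at 3266 to 6504 in the VTA libraries, against 5257 to 6189 in the NAc libraries. The VTA libraries lay below the NAc libraries in 8 of the 16 and above them in none. By voom 5 were called lower and 1 higher. Lgals3, a galectin of phagocytic cells, was at 0.391, 0.145 and 0.0533 in the VTA libraries, against 36.2, 63.3 and 48.8 in the NAc libraries (log2 fold change -5.37 ± 1.14, adjusted p = 0.00591). Gpnmb, a lysosomal glycoprotein, had no read in the VTA libraries and was at 6.91, 7.14 and 1.42 in the NAc libraries (limma adjusted p = 0.00208). It was at least 120.1-fold lower in VTA with a floor of 3 reads in each VTA library. Csf1, the ligand of Csf1r, was at 4.35, 2.34 and 1.26 in the VTA libraries, against 16.9, 17.7 and 14.3 in the NAc libraries (log2 fold change -2.33 ± 0.69, adjusted p = 0.0457). Lgals3 and Gpnmb were each still called without any 1 of the 6 libraries. Csf1 missed the threshold in 5 of the 6 fits that leave out 1 library, all of them fits without VTA P7 replicate 2 or 3 or 1 of the 3 NAc P7 libraries, with adjusted p-values of up to 0.143. Csf1, Csf1r and Cx3cr1 were the calls among 10 ligands and receptors between neurons and microglia, all lower in VTA. Cx3cl1, fractalkine, the neuronal ligand of Cx3cr1, overlapped between the regions at 15.9, 26.5 and 16.4 in the VTA libraries, against 16.6, 29.1 and 25.9 in the NAc libraries (log2 fold change -0.27 ± 0.63, adjusted p = 0.88).

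Immune response genes were lower in VTA where limma called them. Of 15 chemokines and cytokines, Cxcl16, a membrane-bound chemokine, was lower in VTA at 0.0902, 5.23 and 4.17, against 33.7, 32.5 and 33.5 in the NAc libraries (log2 fold change -3.39 ± 0.95, adjusted p = 0.0345). Ccl2, a monocyte chemokine, varied within VTA, at 1008, 2241 and 10.1 in the VTA libraries, against 684, 519.8 and 490.2 in the NAc libraries (log2 fold change -0.93 ± 1.32, adjusted p = 0.763). VTA P7 replicate 3 was the low library, and without it the log2 fold change of Ccl2 was 1.43. None of 13 NF-kB targets were called by limma, with 3 at an unadjusted p under 0.05 and 3 called by voom, and 5 were called lower with the P7 libraries alone. None of 16 interferon-stimulated genes were called either, with 2 at an unadjusted p under 0.05 and 2 called by voom. H2-K1, a class I molecule that presents peptides, was at 164, 171 and 104 in the VTA libraries, against 864, 860.0 and 878 in the NAc libraries (log2 fold change -2.59 ± 0.68, adjusted p = 0.024), the single call of 10 antigen presentation genes. Of 18 phagocytic, Fc and complement receptors, 2 were lower: the integrin Itgb2 at 4.32, 13.6 and 0.0325 in the VTA libraries, against 82.02, 72.7 and 75.8 in the NAc libraries (log2 fold change -4.17 ± 0.99, adjusted p = 0.0135), and the IgG receptor Fcgr4, with no read in the VTA libraries and 10.7, 11.2 and 12.99 in the NAc libraries (limma adjusted p = 0.0471). Cxcl16, H2-K1, Itgb2 and Fcgr4 missed the threshold in 3 to 6 of the 6 fits that leave out 1 library, with adjusted p-values of up to 0.149. Every VTA library was below every NAc library in 7 of 10 antigen presentation genes and 7 of 13 NF-kB targets, with none above. The same held in 9 of 18 receptors (1 above), 4 of 15 chemokines and cytokines and 3 of 16 interferon-stimulated genes (1 above). Over all genes the share was 21.3%. Median log2 fold changes were -1.58, -1.08, -1.39, -0.93 and -0.32 in that order. With the P7 libraries alone 6 antigen presentation genes and 5 receptors were called lower.

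For some other immune cells the sort could hold, few genes could be tested. These were 2 of 13 lymphocyte genes and 5 of 11 genes of monocytes and neutrophils. Each of these lists had 1 lower call and none higher, against 2.40% of all genes called lower. None of 12 genes of border-associated macrophages, which sit in the meninges and around vessels, were called by limma, with 2 at an unadjusted p under 0.05 and 1 called by voom. Pf4, a chemokine of these cells, was at 485, 497 and 63.6 in the VTA libraries, against 36.2, 33.2 and 39.7 in the NAc libraries (log2 fold change 2.75 ± 1.23, adjusted p = 0.199), and Mrc1, the mannose receptor, was at 7.73, 20.7 and 0.124 in the VTA libraries, against 8.02, 9.99 and 13.6 in the NAc libraries (log2 fold change -0.92 ± 0.93, adjusted p = 0.641). VTA P7 replicate 3 was the low library for both. Of 13 lymphocyte genes 9 had no read in the 6 libraries, among them the T cell gene Cd3e and the B cell gene Ms4a1. Cd79b, a chain of the B cell receptor, was at 0.0635, 0.0627 and 3.05 in the VTA libraries, against 49.1, 35.9 and 48.5 in the NAc libraries (log2 fold change -4.76 ± 1.07, adjusted p = 0.00899). Plac8, of the monocyte and neutrophil list, had no read in the VTA libraries and was at 2.9, 5.19 and 1.53 in the NAc libraries (limma adjusted p = 0.034). Cd79b was still called without any 1 of the 6 libraries. Plac8 missed the threshold in 5 of the 6 fits that leave out 1 library, all of them fits without 1 of the 3 VTA P7 libraries or NAc P7 replicate 1 or 2, with adjusted p-values of up to 0.157.

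**Figure D3:**
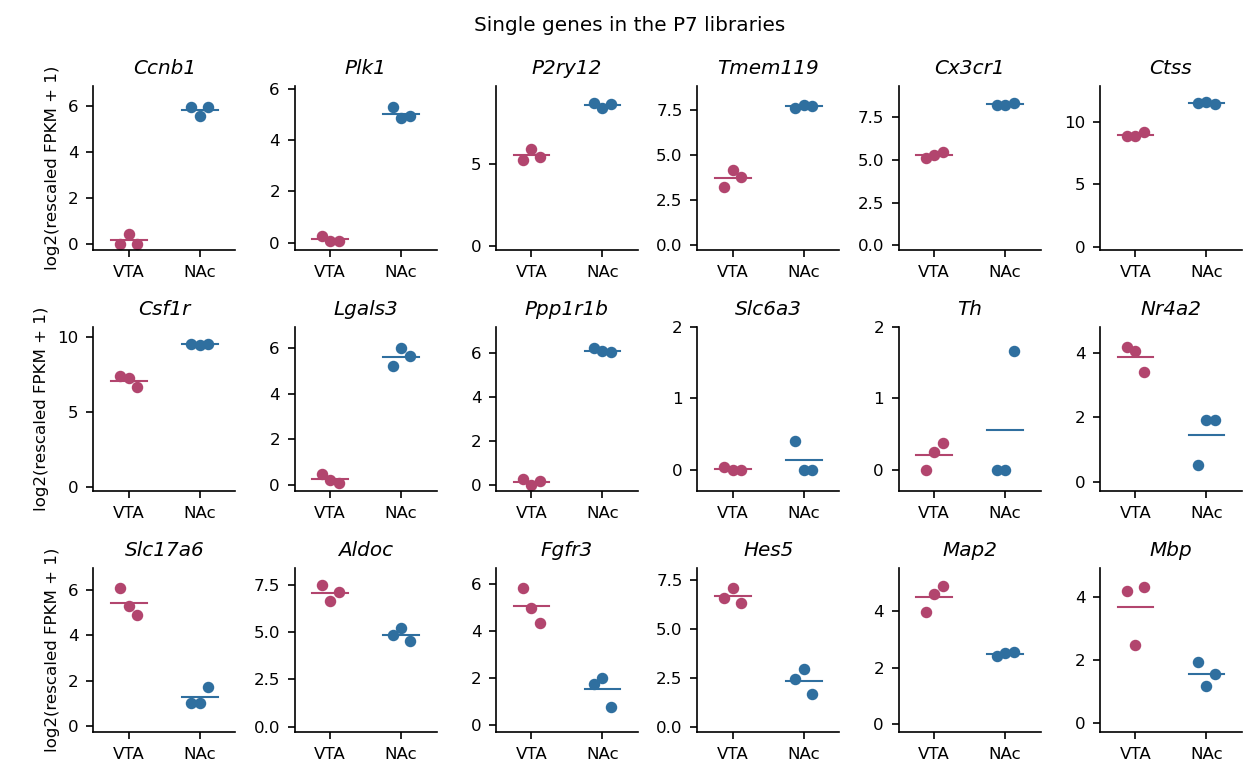
Log2(rescaled FPKM + 1) of 18 genes in the 3 VTA P7 libraries (left) and the 3 NAc P7 libraries (right), with 1 point per library and a bar at the group mean. The cell cycle, microglial and striatal genes of the upper rows are lower in VTA than in NAc. Slc6a3 and Th lie near 0 in both regions, apart from Th in NAc P7 replicate 3. Slc17a6, Fgfr3, Hes5 and Map2 are higher in VTA without overlap.

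Of 24 cell cycle genes tested, 18 were lower in VTA and none higher, against 2.40% of all genes called lower. The median log2 fold change of the list was -3.08 and its summed level was 52.4 to 119 in the VTA libraries, against 641 to 762 in the NAc libraries. Ccnb1, the cyclin B1 that drives entry into mitosis (chromosome 13, 100778650 to 100786570), was at 0, 0.319 and 0 in the VTA libraries, against 60.3, 45.8 and 59.9 in the NAc libraries (log2 fold change -5.67 ± 0.44, adjusted p = 4.34e-08). Ccnb2, the second B cyclin, was at 0, 2.75 and 2.14 in the VTA libraries, against 85.1, 80.9 and 91.4 in the NAc libraries (log2 fold change -5.25 ± 0.83, adjusted p = 0.000528). Plk1, a kinase of mitosis (chromosome 7, 122159439 to 122169873), was at 0.207, 0.0408 and 0.0451 in the VTA libraries, against 38.2, 27.8 and 29.6 in the NAc libraries (log2 fold change -4.90 ± 0.75, adjusted p = 0.000445). The NAc libraries were all above 27 in these genes and the VTA libraries all below 3. Cdc20, the activator of the anaphase-promoting complex, was at 0, 5.47 and 0.0531 in the VTA libraries, against 57.5, 46.8 and 54.6 in the NAc libraries (log2 fold change -4.83 ± 0.76, adjusted p = 0.000526). Cdk1, the kinase partner of the B cyclins, was at 3.46, 5.45 and 0.0603 in the VTA libraries, against 37.5, 36.6 and 42.8 in the NAc libraries (log2 fold change -3.67 ± 0.67, adjusted p = 0.00185). Mcm2, a subunit of the replication helicase, was at 0, 2.39 and 0.0997 in the VTA libraries, against 12.7, 15.7 and 15.6 in the NAc libraries (log2 fold change -3.33 ± 0.47, adjusted p = 0.000198). VTA P7 replicate 2 was the high VTA library for Cdc20 and Mcm2. Cdca8, of the chromosomal passenger complex, and Cenpe, a kinetochore motor, had log2 fold changes of -4.34 and -2.27 (adjusted p = 0.000155 and 0.000334). Mki67, the proliferation marker Ki-67, was at 1.14, 4.12 and 1.91 in the VTA libraries, against 6.95, 5.2 and 8.64 in the NAc libraries, and was not called (log2 fold change -1.30 ± 0.41, adjusted p = 0.0588).

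Cks2, a subunit of cyclin-dependent kinases outside the list, was at 0.263, 18.1 and 0 in the VTA libraries, against 66.97, 67.9 and 88.6 in the NAc libraries (log2 fold change -4.69 ± 1.20, adjusted p = 0.0215). Ccnb1, Ccnb2, Plk1, Cdc20, Cdk1, Mcm2, Cdca8 and Cenpe were each still called without any 1 of the 6 libraries. Cks2 missed the threshold in 5 of the 6 fits that leave out 1 library, all of them fits without VTA P7 replicate 1 or 3 or 1 of the 3 NAc P7 libraries, with adjusted p-values of up to 0.096. Leaving out 1 library at a time, 15 to 19 of the 24 list members were called lower. With a pseudocount of 0.1 in place of 1, 8 were. Microglial genes moved in the same direction between the regions, and their part in the cell cycle result was not tested.

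The promoters of 4 of these genes are shown because they move together and belong to a class known to be switched on in the G2 and M phases through CCAAT letters, read by the factor NF-Y, and the cell cycle homology region TTTGAA. The windows run from 250 bases before to 50 after the gene's start (RefSeq, GRCm38.p6), and capitals mark CCAAT or, for the other strand, ATTGG. They also mark TTTGAA or, for the other strand, TTCAAA. They lie at chr13:100786437-100786736 (minus strand) for Ccnb1, chr9:70421505-70421804 (minus) for Ccnb2, chr7:122159185-122159484 (plus) for Plk1 and chr4:118437294-118437593 (minus) for Cdc20.
Ccnb1: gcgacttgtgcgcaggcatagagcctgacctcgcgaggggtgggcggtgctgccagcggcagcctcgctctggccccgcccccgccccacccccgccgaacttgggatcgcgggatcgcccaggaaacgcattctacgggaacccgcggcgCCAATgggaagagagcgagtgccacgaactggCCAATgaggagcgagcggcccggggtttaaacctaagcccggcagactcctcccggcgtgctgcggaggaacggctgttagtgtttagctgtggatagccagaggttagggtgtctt
Ccnb2: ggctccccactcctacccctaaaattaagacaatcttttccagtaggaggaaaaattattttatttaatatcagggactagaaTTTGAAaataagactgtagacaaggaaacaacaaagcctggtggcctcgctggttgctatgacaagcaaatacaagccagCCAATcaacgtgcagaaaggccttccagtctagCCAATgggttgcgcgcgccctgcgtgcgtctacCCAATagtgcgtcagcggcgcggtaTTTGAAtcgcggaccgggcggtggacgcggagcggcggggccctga
Plk1: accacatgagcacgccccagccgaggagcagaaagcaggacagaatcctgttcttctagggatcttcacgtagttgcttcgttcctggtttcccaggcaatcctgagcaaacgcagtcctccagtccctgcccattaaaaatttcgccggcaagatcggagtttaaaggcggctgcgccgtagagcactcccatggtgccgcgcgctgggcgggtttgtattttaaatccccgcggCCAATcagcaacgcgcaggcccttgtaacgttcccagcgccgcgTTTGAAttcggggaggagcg
Cdc20: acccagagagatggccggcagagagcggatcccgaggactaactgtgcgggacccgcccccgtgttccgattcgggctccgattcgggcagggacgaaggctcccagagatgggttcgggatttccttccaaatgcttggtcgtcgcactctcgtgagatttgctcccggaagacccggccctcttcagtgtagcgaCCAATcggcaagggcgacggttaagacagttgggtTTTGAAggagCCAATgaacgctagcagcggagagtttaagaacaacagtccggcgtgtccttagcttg
In Ccnb1 the CCAAT letters start 99 and 67 bases before the gene's start, 32 bases apart, and the window holds no TTTGAA on either strand. In Ccnb2 they start 87, 54 and 21 bases before it, 33 bases apart each time, and TTTGAA is found 167 bases before the start and 4 bases after it. In Plk1 CCAAT starts 14 bases before and TTTGAA 30 bases after the start. Cdc20 has CCAAT 53 and 8 bases before its start, with TTTGAA between them 18 bases before it. Of 21 cell cycle list promoters with a window, 19 held CCAAT on either strand (90.5%), against 37.9% of 27025 promoters. TTTGAA on either strand was in 12 of the 21 (57.1%), against 18.1%. Each of these 12 also held CCAAT, a combination found in 7.12% of all promoters. Among the 16 called genes with a window the shares were 93.8% for CCAAT and 56.2% for TTTGAA, close to those over the whole list.

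Blood, vessel and choroid plexus genes differed in part. Of 5 blood cell genes tested, 4 were higher in VTA, all hemoglobin chains, with a median log2 fold change of 4.23 over the 5. Hba-a1 was at 477, 1367 and 1015 in the VTA libraries, against 12.5, 144 and 50.04 in the NAc libraries (log2 fold change 4.23 ± 0.97, adjusted p = 0.0108). Hbb-bs was at 123, 338 and 217 in the VTA libraries, against 2.06, 28.8 and 9.81 in the NAc libraries (log2 fold change 4.39 ± 0.89, adjusted p = 0.00449). NAc P7 replicate 2 was the high NAc library for both. Hba-a2 and Hbb-bt gave log2 fold changes of 4.69 and 4.07 (adjusted p = 0.00811 and 0.0116), and the alpha pair and the beta pair are near-identical copies, so the split of reads within each pair is uncertain. Ttr, transthyretin, a carrier of thyroid hormone made in bulk by the choroid plexus, was at 124, 137 and 515 in the VTA libraries, against 2.88, 15.3 and 4.44 in the NAc libraries (log2 fold change 4.89 ± 1.06, adjusted p = 0.00725). Mgp, a matrix protein of vessel walls and fibroblasts, was at 24.5, 24.2 and 36.8 in the VTA libraries, against 0.174, 0.0512 and 1.32 in the NAc libraries (log2 fold change 4.35 ± 1.16, adjusted p = 0.0265). Ttr was the single call of 10 ependymal and choroid plexus genes. Col1a1, a fibroblast collagen, was the single call of 10 mural cell and fibroblast genes, at 6.02, 16.05 and 34.7 in the VTA libraries, against 0.241, 0.667 and 1.16 in the NAc libraries (log2 fold change 3.30 ± 0.72, adjusted p = 0.0072). None of 15 endothelial genes were called by limma, with 2 at an unadjusted p under 0.05 and 2 called by voom. The tight junction gene Cldn5 was at 53.6, 32.4 and 78.2 in the VTA libraries, against 7.83, 12.4 and 15.2 in the NAc libraries (log2 fold change 2.08 ± 1.10, adjusted p = 0.289). Col1a1 was still called without any 1 of the 6 libraries. Hba-a1, Hbb-bs, Hba-a2, Hbb-bt and Ttr missed the threshold without NAc P7 replicate 1 (adjusted p = 0.0956, 0.0501, 0.0816, 0.0926 and 0.052). Mgp missed the threshold in 5 of the 6 fits that leave out 1 library, all of them fits without VTA P7 replicate 1 or 3 or 1 of the 3 NAc P7 libraries, with adjusted p-values of up to 0.102.

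The remaining genes among the 15 with the largest increase include secreted proteins. Agt, angiotensinogen, which astrocytes of the midbrain and hindbrain make, had the largest increase (chromosome 8, 124556534 to 124569706). It was at 409, 127 and 225 in the VTA libraries, against 1.02, 1.61 and 0 in the NAc libraries (log2 fold change 7.03 ± 1.05, adjusted p = 0.000334). Cbln2, a secreted synapse organizer, was at 29.3, 806 and 58.04 in the VTA libraries, against 1.67, 6.26 and 4.77 in the NAc libraries, where VTA P7 replicate 2 stood far above the other two (log2 fold change 4.55 ± 0.98, adjusted p = 0.007). Gstm6, a glutathione transferase, was at 15.7, 8.75 and 26.3 in the VTA libraries, against 0, 0.0611 and 0 in the NAc libraries (log2 fold change 4.01 ± 0.80, adjusted p = 0.00411). Zfp811, a zinc finger gene, was at 25.3, 13.2 and 13.9 in the VTA libraries, against 1.1, 0.0176 and 0.0681 in the NAc libraries (log2 fold change 3.75 ± 0.49, adjusted p = 8.81e-05). Lhx1os, a noncoding RNA opposite Lhx1, was at 18.7, 27.9 and 18.5 in the VTA libraries, against 0, 0.609 and 0.225 in the NAc libraries (log2 fold change 4.15 ± 0.86, adjusted p = 0.00519). Gstm6 has close paralogs, and counting by strand is not given in the sources used here, so both it and the antisense Lhx1os are uncertain. Mir673, a microRNA locus of 91 bases, was called as well (adjusted p = 0.0303), a length at which few reads make a high value and which makes it uncertain. Agt, Gstm6, Zfp811 and Lhx1os were each still called without any 1 of the 6 libraries. Cbln2 missed the threshold without NAc P7 replicate 1 (adjusted p = 0.052). Mir673 missed the threshold in 4 of the 6 fits that leave out 1 library, all of them fits without VTA P7 replicate 2 or 3 or NAc P7 replicate 2 or 3, with adjusted p-values of up to 0.179.

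The remaining genes among the 15 with the largest decrease were as follows. Bin2, a membrane-bending protein of leukocytes (chromosome 15, 100641077 to 100669553), had no read in the VTA libraries and was at 43.4, 44.7 and 38.4 in the NAc libraries (limma adjusted p = 0.000612). It was at least 381-fold lower in VTA with a floor of 3 reads in each VTA library. Slamf9, a surface receptor of myeloid cells, was at 0.0692, 0 and 0.0755 in the VTA libraries, against 45.4, 58.5 and 44.1 in the NAc libraries (log2 fold change -5.57 ± 1.31, adjusted p = 0.0125). Casp1, the inflammasome protease, was at 0, 0.479 and 0.0662 in the VTA libraries, against 36.8, 39.5 and 36.9 in the NAc libraries (log2 fold change -5.06 ± 1.02, adjusted p = 0.00441). The VTA libraries were thus below 1 for these genes and the NAc libraries above 36. Ccl6, a chemokine, was at 11.2, 0.15 and 0 in the VTA libraries, against 70.1, 74.99 and 75.2 in the NAc libraries (log2 fold change -4.95 ± 1.18, adjusted p = 0.0142). Mfng, a glycosyltransferase that modifies Notch, was at 0.064, 19.1 and 0.14 in the VTA libraries, against 62.8, 93.1 and 81.6 in the NAc libraries, with VTA P7 replicate 2 well above the other two (log2 fold change -4.77 ± 1.26, adjusted p = 0.0256). Arhgdib, an inhibitor of small GTPase signalling in blood-derived cells, is not among the 15 and is named for the test of region by age. It was at 11.4, 45.1 and 10.2 in the VTA libraries, against 281, 275 and 249 in the NAc libraries (log2 fold change -3.85 ± 0.55, adjusted p = 0.000249). The very short genes Ighj1 (53 bases) and Mir5107 (88 bases) were also among the 15 (adjusted p = 0.0286 and 0.0382), and are uncertain for the same reason. Bin2, Casp1 and Arhgdib were each still called without any 1 of the 6 libraries. Slamf9 missed the threshold without NAc P7 replicate 2 (adjusted p = 0.0519). Ccl6, Mfng, Ighj1 and Mir5107 missed the threshold in 5 to 6 of the 6 fits that leave out 1 library, with adjusted p-values of up to 0.145.

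Hmgcs1, an early enzyme of cholesterol synthesis, was at 87.3, 48.1 and 63.7 in the VTA libraries, against 11.7, 12.4 and 12.8 in the NAc libraries (log2 fold change 2.30 ± 0.54, adjusted p = 0.0122), 1 of 17 genes of its pathway, of which 10 had every VTA library above every NAc library. Tgfb2, a transforming growth factor of astrocytes and neurons, was at 10.2, 22.04 and 16.6 in the VTA libraries, against 0.939, 1.05 and 1.18 in the NAc libraries (log2 fold change 3.01 ± 0.65, adjusted p = 0.0065), the single call of 14 TGF-beta genes. Pfkp, a glycolytic phosphofructokinase, was higher in VTA and the single call of 18 (adjusted p = 0.0397). Egr1, an immediate early gene, which neurons and microglia switch on within minutes of a stimulus, was at 145, 157 and 100.2 in the VTA libraries, against 844, 790.3 and 843 in the NAc libraries (log2 fold change -2.64 ± 0.69, adjusted p = 0.0239), the single call of 21. Every VTA library was below every NAc library in 12 of the 21, against 21.3% of all genes, and above in 1. Their median log2 fold change was -1.02. The list summed to 2996 to 4418 in the VTA libraries, against 9262 to 9966 in the NAc libraries. With the P7 libraries alone 7 were called lower and 1 higher. None of 11 heat shock genes were called by limma, with 2 at an unadjusted p under 0.05 and 1 called by voom. None of 10 genes of lipid efflux and storage were called by limma, with 2 at an unadjusted p under 0.05 and 2 called by voom. Mitochondrially encoded genes were higher in VTA for 4 of 13, all subunits of complex I, and every VTA library was above every NAc library in the 13. With the FPKM as deposited, 0 were called. mt-Nd4 was at 4791, 3396 and 5282 in the VTA libraries, against 1430.3, 1932 and 1808 in the NAc libraries (log2 fold change 1.37 ± 0.31, adjusted p = 0.0107). mt-Nd1, mt-Nd2 and mt-Nd5 had log2 fold changes of 1.38, 1.55 and 1.49 (adjusted p = 0.0299, 0.0196 and 0.0202). Tgfb2 was still called without any 1 of the 6 libraries. Hmgcs1 and mt-Nd4 missed the threshold without NAc P7 replicate 1 (adjusted p = 0.0577 and 0.0735). Pfkp, Egr1, mt-Nd1, mt-Nd2 and mt-Nd5 missed the threshold in 5 of the 6 fits that leave out 1 library, with adjusted p-values of up to 0.139.

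Whether the regional difference at P7 departs from the one at later ages was tested as the VTA over NAc log2 difference at P7 minus the mean of that difference at P30 and P60. It was called for 3184 genes (16.9%), higher for 2367 (12.5%) and lower for 817 (4.33%). Its median over all genes was 0.37, which became 0.05 under quantile normalization, where 1700 of 3274 calls were higher, so the values are to be read against a shift of that size. VTA P30 replicate 3, VTA P60 replicate 2, NAc P60 replicate 3 and SNc P60 replicate 3 each had the fewest genes with a read in their group. These were 6786, 12914, 11962 and 12736 genes. Without these 4 libraries 4855 genes were called, of which 57.9% were higher, and the median was 0.19. SNc P30 replicate 1 was kept, although its 12437 genes were fewer than those of VTA P60 replicate 2 and SNc P60 replicate 3. Age and the date and run code in the titles cannot be told apart, and both regions of an age share them. The 10 genes with the smallest adjusted p are described, and each was still called without any 1 of the 6 P7 libraries.

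The difference of myeloid genes at P7 was not that of the later ages. In this test 14 of 16 pan-myeloid and 7 of 13 homeostatic microglia genes had a lower call, with none higher. Ctss averaged 499 ± 63.3 in VTA and 2923 ± 132 in NAc at P7, 8032 ± 3344 and 2178 ± 558 in VTA and NAc at P30, and 7045 ± 2124 and 1825 ± 1024 at P60 (mean ± SD, n = 3 libraries each). Its difference at P7 minus that at the later ages was -4.52 ± 0.55 (limma adjusted p = 3.03e-05). Arhgdib averaged 22.3 ± 19.8 in VTA and 268 ± 17.1 in NAc at P7, 368 ± 52.9 and 119 ± 25.05 in VTA and NAc at P30, and 234 ± 24.9 and 60.03 ± 36.9 at P60, a change of -5.75 ± 0.67 (limma adjusted p = 3.03e-05). In both genes the region with the higher mean was NAc at P7 and VTA at P30 and P60.

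Of the 24 cell cycle genes, 15 had a lower call in this test and none a higher one. Ccnb1 averaged 0.106 ± 0.184 in VTA and 55.3 ± 8.28 in NAc at P7. At the later ages it had no read in VTA, against 0.0452 ± 0.0783 in NAc at P30 and 0.701 ± 0.892 in NAc at P60. The difference at P7 minus the later one was -5.32 ± 0.54 (limma adjusted p = 1.06e-05). Snord73a, a small nucleolar RNA of 68 bases, had no read in the VTA P7 libraries and was at 12.2, 9.83 and 18.5 in the NAc P7 libraries, with a change of -3.81 ± 0.46 (limma adjusted p = 3.03e-05), and its short length makes it uncertain.

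Neuronal and astrocyte genes went the opposite way, with higher calls for 13 of 14 pan-neuronal, 15 of 18 synaptic vesicle and release and 14 of 17 astrocyte genes and no lower calls. Snhg11, a noncoding RNA of neurons, averaged 149 ± 33.1 in VTA and 16.8 ± 1.63 in NAc at P7, 0.357 ± 0.265 and 32.4 ± 19.6 in VTA and NAc at P30, and 16.4 ± 4.65 and 68.2 ± 23.7 at P60, a change of 6.28 ± 0.76 (limma adjusted p = 3.03e-05). Clip3, a microtubule-associated protein, averaged 30.3 ± 16.2 in VTA and 4.47 ± 0.777 in NAc at P7, 0.153 ± 0.125 and 7.87 ± 4.52 in VTA and NAc at P30, and 4.88 ± 0.465 and 34.3 ± 12.3 at P60, a change of 5.09 ± 0.61 (limma adjusted p = 3.03e-05). Ptn, the growth factor pleiotrophin, averaged 344 ± 43.6 in VTA and 41.6 ± 5.95 in NAc at P7, 39.4 ± 17.2 and 143 ± 7.63 in VTA and NAc at P30, and 35.6 ± 13.9 and 135 ± 42.7 at P60, a change of 4.95 ± 0.58 (limma adjusted p = 3.03e-05). These genes were thus higher in VTA at P7 and higher in NAc at P30 and P60. The kinase Dclk1, the active zone protein Erc2 and the neuronal transcription factor Myt1l gave changes of 4.79, 4.26 and 4.32 (limma adjusted p = 3.03e-05 for each). At P7 itself the VTA over NAc log2 fold changes were 3.06, 2.41, 3.02, 2.00, 2.27 and 1.87 for these 6 genes, all called. Snhg11, Clip3, Ptn and Erc2 were each still called without any 1 of the 6 libraries. Dclk1 missed the threshold without NAc P7 replicate 3 (adjusted p = 0.0535). Myt1l missed the threshold without NAc P7 replicate 1 (adjusted p = 0.0754).

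**Figure D4:**
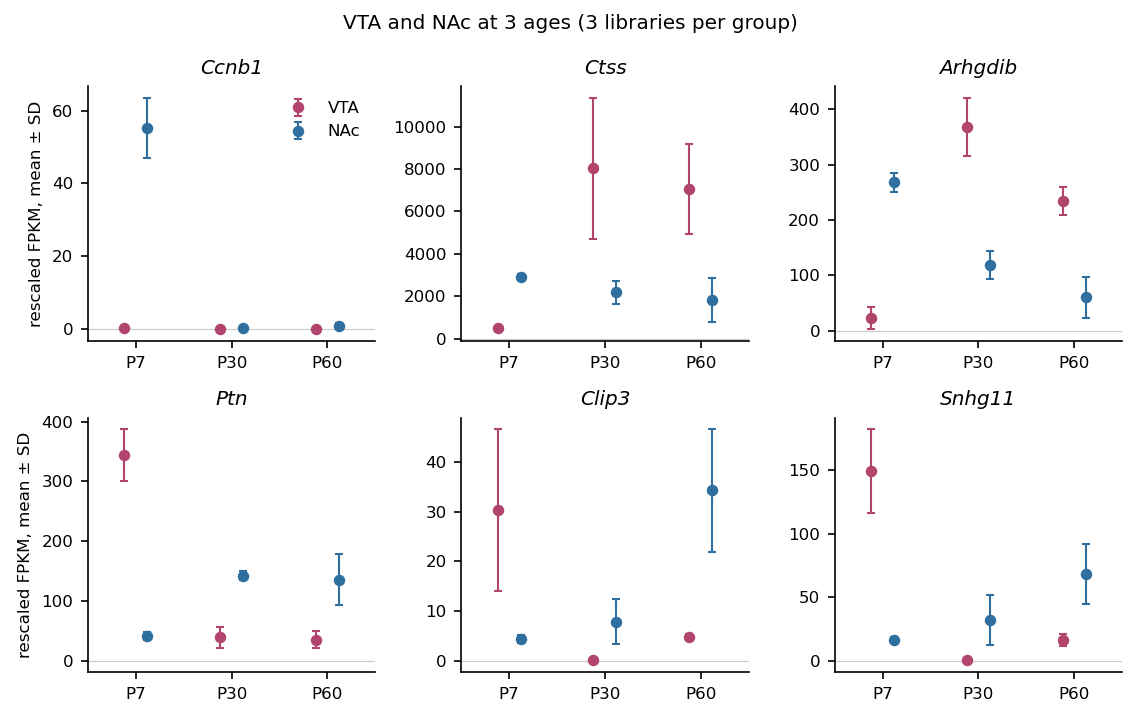
Rescaled FPKM (y axis, mean ± SD of 3 libraries, linear scale) of 6 genes in VTA and NAc at P7, P30 and P60, with VTA left of NAc at each age. Ctss and Arhgdib are higher in NAc at P7 and higher in VTA at P30 and P60, Ptn, Clip3 and Snhg11 the reverse, and Ccnb1 is high only in NAc at P7.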

How the data were processed

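RNA of sorted DAT+ cells was measured by SMART-seq2 in 27 libraries, 6 of them compared here. Reads were aligned with HISAT2 to GRCm38/mm10, per the submitters' processing notes, and the read counter is not given in the sources used here. FPKM by the authors were deposited for 54532 genes, per the file headers. The column of VTA P30 replicate 3 is a signal proportional to FPKM with another divisor, as the deposited values show.

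Each column was divided by its sum of FPKM times gene length, which puts the libraries on reads in genes. Reads recovered as FPKM times length were whole within 0.02 below 1000 reads. Genes reaching 1 in at least 3 libraries were kept. log2(value + 1) was fitted with limma 3.58.1 (R 4.3.3, trend and robust variances) with a term for each of the 9 groups, and p-values were adjusted over the 18888 genes. The script was tested on simulated data, where it recovered 44% of genes changed 4-fold and 96% of those changed 16-fold. All groups were simulated with the same spread, unlike the VTA and NAc libraries here. Replicates 1, 2 and 3 of a group entered as separate samples. Same-numbered libraries were not treated as pairs in the main fit, as the labels do not tie libraries to mice. Gene symbols and coordinates were taken by gene ID from GENCODE M21 on GRCm38, and the name column of the deposited values was not used.

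The members and the 42 gene lists were chosen with earlier results of these data known. Genes named were those called, with a mean of at least 5 and no overlap between groups: the 15 largest changes in each direction, up to 4 of each list with at least 3 calls, the 10 smallest adjusted p-values of the test of region by age, for which overlap was allowed, and 6 dopaminergic genes whatever their values. A further 42 list members were chosen after their values were seen. Some genes that the rule names are not reported here. Alternatives were other filters, pseudocounts, scalings, voom on recovered reads, other sets of libraries, a replicate block and leaving out each library. The voom test is limma's test on read counts with sample weights. Depth limits low genes: 3 reads were taken as the floor, which covers counting error only.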

Additional observations from a re-analysis of the deposited data

Results flagged for a closer look

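The regional difference at P7 stood apart from that at the later ages for 3184 of 18888 genes tested, by a test of the difference itself (limma, adjusted p under 0.05), and 105 of these are among the 122 tested genes named in the text. The values that follow are the VTA over NAc log2 difference at P7 minus its mean at P30 and P60, over a median of 0.37 for all genes. A value below 0 means that VTA stood lower against NAc at P7 than at the later ages. Some of these calls depended on single P7 libraries. In the 6 fits that leave out 1 P7 library, Csf1, Ptprc, Ighj1 and mt-Nd2 kept the call in 1. C1qa, Cxcl16 and Mbp kept it in 2. Age and the date and run code in the titles cannot be told apart.

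Among genes of the microglial, myeloid, lysosomal and immune response lists, 22 had a value below 0, with -5.99 for Lgals3, -5.67 for Itgb2, -5.34 for Gpr34, -5.09 for H2-K1, -4.96 for Tmem119, -4.80 for Fcgr4, -4.52 for Ctss and -4.36 for Selplg. It was -3.95 for Cx3cr1, -3.89 for P2ry12, -3.78 for Cxcl16, -3.52 for Ly86, -3.50 for Lgmn, -3.41 for C1qc, -3.31 for Ctsz and -3.17 for Ptprc. The next were -3.07 for C1qb, -2.84 for Csf1r, -2.83 for C1qa, -2.60 for Csf1, -2.38 for Ctsb and -1.77 for Gpnmb.

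Among cell cycle genes, 8 had a value below 0, with -5.32 for Ccnb1, -4.52 for Plk1, -4.04 for Cdc20, -4.00 for Ccnb2, -3.60 for Cdca8, -3.36 for Cdk1, -3.02 for Mcm2 and -2.20 for Cenpe.

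Among astrocyte, progenitor and oligodendrocyte genes, 15 had a value above 0, with 7.11 for Hes5, 5.35 for Sox2, 5.22 for Aldoc, 5.02 for Sox10, 4.97 for Fgfr3, 4.92 for S100b, 4.89 for Gfap and 4.76 for Fabp7. It was 4.32 for Sox9, 4.25 for Pdgfra, 3.90 for Mlc1, 3.83 for Ptprz1, 3.35 for Slc4a4, 3.11 for Atp1b2 and 2.12 for Mbp.

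Among neuronal and synaptic genes, 1 had a value below 0, with -3.13 for Ppp1r1b. Ppp1r1b missed the threshold in each of the 6 fits that leave out 1 P7 library (limma adjusted p = 0.0686 to 0.0936). A value above 0 was found for 20, with 5.81 for Syn2, 5.70 for Cck, 4.63 for Gria4, 4.44 for Pvalb, 4.41 for Rasd2, 4.39 for Slc17a6, 4.37 for Gria2 and 4.15 for Abat. It was 4.14 for Map2, 4.14 for Nefl, 4.01 for Rims1, 3.92 for Basp1, 3.76 for Nefm, 3.38 for Dcx, 3.37 for Maoa and 3.11 for Nr4a2. The next were 3.06 for Six3, 3.05 for Glra2, 3.01 for Nnat and 2.38 for Grik2.

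Among blood, vessel, choroid plexus, mitochondrial and metabolic genes, 12 had a value above 0, with 7.25 for Ttr, 6.51 for Hba-a2, 5.72 for Hbb-bs, 4.89 for Col1a1, 4.84 for Hbb-bt, 4.49 for Hba-a1, 4.26 for Hmgcs1 and 4.13 for Tgfb2. It was 2.58 for Pfkp, 1.65 for mt-Nd5, 1.41 for mt-Nd4 and 1.39 for mt-Nd2.

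Among the other genes named in the text, 13 had a value below 0, with -7.31 for Cks2, -6.34 for Bin2, -6.30 for Casp1, -6.29 for Slamf9, -6.04 for Mir5107, -5.78 for Mfng, -5.75 for Arhgdib and -5.38 for Ccl6. It was -5.29 for Ighj1, -5.25 for Egr1, -4.64 for Cd79b, -3.81 for Snord73a and -2.23 for Plac8. A value above 0 was found for 14, with 7.43 for Agt, 6.39 for Cbln2, 6.28 for Snhg11, 5.47 for Mir673, 5.09 for Clip3, 5.05 for Mgp, 5.03 for Gstm6 and 4.95 for Ptn. It was 4.79 for Dclk1, 4.78 for Zfp811, 4.69 for Lhx1os, 4.32 for Myt1l, 4.26 for Erc2 and 2.91 for Cx3cl1.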

How the results depend on the processing

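Over the 122 tested genes named in the text, the direction of every called gene held under every alternative run, while calls were lost: 45 of 108 called genes were called without any 1 of the 6 libraries and 5 were called in none of these 6 fits. The count of 1091 called genes became 361 with a pseudocount of 0.1 (120 higher), 2894 with voom, 3120 with the 9 P7 libraries, 2168 with the 6 compared libraries and 2861 without 4 libraries of P30 and P60, and ranged over 390 to 1130 when 1 library was left out. The cause was not tested. Of the main calls, 335 were shared with the pseudocount of 0.1, 968 with voom and 975 with the P7 libraries. The other filters gave 1402 and 1319 calls, quantile normalization 1457 and the FPKM as deposited 873. The count of 3184 for region by age became 2064 with the pseudocount of 0.1, 5225 with voom and 4855 without the 4 libraries, and 2188 to 3059 without 1 library. Its share of higher calls, 74.3%, was 51.9% under quantile normalization, 57.9% without the 4 libraries and 68.7% with the FPKM as deposited.

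Among the named genes, directions changed only for genes that were not called. Ddc was at -0.41 with the pseudocount of 0.1, -0.19 with voom, and -0.41 to 0.71 without 1 library. Slc6a3 was at 0.074 under quantile normalization and -0.19 to 0.012 without 1 library, and Th at -0.62 to 0.21. Slc18a2 was at -0.14 to 1.55 and Mrc1 at -1.85 to 0.28 without 1 library. Ccl2 was at 0.18 with voom and -2.40 to 1.43 without 1 library. For region by age, Slc18a2 was at 1.06 with voom, 0.85 without the 4 libraries and -1.05 to 0.64 without 1 library, Drd1 at -0.087 to 1.27 and Mrc1 at -1.26 to 0.87.

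Same-numbered libraries did not deviate together (correlations -0.0044, -0.019 and 0.0045). With the wide spread between the VTA libraries, these values cannot show whether same-numbered libraries share mice. With the replicate block 971 genes were called at P7, 871 of them shared with the 1091, and 2828 for region by age, where Slc18a2 was at 0.23. Low values limit the genes near 0: the VTA libraries had fewer genes with a read, and 261 of the 453 lower calls had a VTA mean under 1.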
